A study of Mus musculus with 7 samples.

Results

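Ctla2b, a mouse gene for an inhibitor of cysteine proteases, and 5 further genes for inhibitors of the same enzyme class are described here: Ctla2a, Cst3, Cst6, Cst7 and Cstb. These 6 genes were taken by symbol from the 23930 genes of the deposited expression table. They were chosen by family name and selected on the difference between hypercapnia and normocapnia of Ctla2b in these same libraries, known beforehand, so that difference is given for them as a description without a test. Skeletal muscle stem cells were compared between mice kept in normocapnia (NC, room air, 3 libraries, NC1 to NC3) and mice kept in hypercapnia (HC, air enriched in CO2, 4 libraries, HC1 to HC4). The exposure lasted 4 weeks in both groups. All mice carried an inducible Pax7-GFP reporter and received tamoxifen when 12 weeks old, and cells were taken 4 weeks later, at 16 weeks. The labels name C57/B6 littermates, although the genotype entry reads C57BL/6 for NC1 and its last number goes up by 1 with each library to 12 in HC4. According to the study's methods, Cre under Pax7 control switches on GFP, which then stays on in the descendants of a marked cell, and the muscle of both groups was injured with cardiotoxin before the sort. GFP-positive mononuclear cells of the hind leg muscles were sorted, and their RNA was read with the Ion AmpliSeq mouse panel, in which a gene is counted through an amplicon designed for it. Values are in RPM, the reads of a gene scaled to a common library total, and are listed in the order NC1 to NC3 and HC1 to HC4. They compare the levels of a gene between libraries and do not rank genes, because amplicons differ in efficiency.

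Cysteine proteases cut proteins with an active-site cysteine, and many of them, such as cathepsins B and L and legumain, work in the lysosome, where autophagy delivers its cargo. Cystatins are reversible inhibitors that wedge a conserved loop into the active site. Cst3 (cystatin C), Cst6 (cystatin M/E) and Cst7 (cystatin F) are made with a signal peptide, whereas Cstb (cystatin B) stays in the cytosol and nucleus. Ctla2a and Ctla2b, first found in activated T cells and mast cells, belong to a different fold: they resemble the propeptide that keeps cathepsin L inactive.

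The coding sequences of the neighbouring genes Ctla2a and Ctla2b are shown because nearly all their bases are shared, which bears on how far their reads can be told apart. The first 300 paired bases come from GENCODE M21 (GRCm38), read 5′ to 3′ from base 73 of Ctla2a and base 1 of Ctla2b, and capitals mark the 13 bases that differ.

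Ctla2a: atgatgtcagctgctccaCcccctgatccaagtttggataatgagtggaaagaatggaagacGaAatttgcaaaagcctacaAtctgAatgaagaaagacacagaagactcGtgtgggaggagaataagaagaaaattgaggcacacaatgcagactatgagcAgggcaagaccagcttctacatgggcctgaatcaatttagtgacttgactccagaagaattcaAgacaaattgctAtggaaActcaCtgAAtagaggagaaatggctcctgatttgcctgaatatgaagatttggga

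Ctla2b: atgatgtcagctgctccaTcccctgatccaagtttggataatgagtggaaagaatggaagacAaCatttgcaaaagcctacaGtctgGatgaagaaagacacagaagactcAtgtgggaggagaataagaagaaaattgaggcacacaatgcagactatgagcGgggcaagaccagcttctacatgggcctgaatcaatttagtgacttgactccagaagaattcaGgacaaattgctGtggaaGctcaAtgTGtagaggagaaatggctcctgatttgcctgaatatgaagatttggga

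Ctla2a lies at chr13:60934155-60936625 and Ctla2b at chr13:60895350-60897447, both on the minus strand of GRCm38, and the transcripts used here have 5 exons each. Of 342 paired coding bases 329 (96.2%) are identical and 13 differ, and Ctla2a has 72 further bases at its 5′ end, so its predicted product of 137 residues is the longer. The products are identical at 90.3% of aligned residues. The longest stretch without a difference spans 88 bases in the coding sequences and 91 in the transcripts, so a short amplicon inside it could not separate the genes. The amplicon positions were not given in the sources used here, and the split of reads between Ctla2a and Ctla2b is therefore uncertain.

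Translated from the same annotation, Ctla2a shared 43 of 120 aligned residues (35.8%) with residues 5 to 132 of the 334 of Ctsl (cathepsin L), the end that holds its propeptide. Ctla2b shared 31 of 73 (42.5%) with residues 17 to 89. The likeness was not particular to Ctsl: with Ctss (cathepsin S) both shared 30 of 66 aligned residues (45.5%), and with Ctsk (cathepsin K) Ctla2a shared 37.4%. The cystatins were less alike among themselves than the Ctla2 genes were: Cst3 and Cst6 were identical at 33.6% of aligned residues, Cst6 and Cst7 at 32.1% and Cst3 and Cst7 at 30%. A cystatin inhibitory loop, Gln-x-Val-x-Gly, was found once in each of Cst3, Cst6, Cst7 and Cstb and in neither Ctla2 protein. The same 5-residue pattern also occurred once in Ctsl, so a match by itself does not mark an inhibitor. Cst3 (chr2:148871722-148875692, minus strand) and Cst7 (chr2:150570415-150578944, plus strand) share a chromosome, while Cst6 (chr19:5344705-5349574, minus strand) and Cstb (chr10:78425669-78427622, plus strand) lie elsewhere.

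The 250 bases before each Ctla2 start are shown because Ctla2a and Ctla2b differed in the libraries while these sequences are close to each other. They were taken from RefSeq (GRCm38.p6) at chr13:60936626-60936875 and chr13:60897448-60897697, are written 5′ to 3′ on the minus strand, and carry in capitals the letters TGACTCA (the AP-1 element) and TGACGTC (a core of the cyclic AMP response element).

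Ctla2a: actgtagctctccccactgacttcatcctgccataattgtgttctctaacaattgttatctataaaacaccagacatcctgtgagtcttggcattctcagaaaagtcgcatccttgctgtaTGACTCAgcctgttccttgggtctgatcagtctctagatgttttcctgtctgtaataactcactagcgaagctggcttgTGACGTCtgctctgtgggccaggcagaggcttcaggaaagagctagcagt

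Ctla2b: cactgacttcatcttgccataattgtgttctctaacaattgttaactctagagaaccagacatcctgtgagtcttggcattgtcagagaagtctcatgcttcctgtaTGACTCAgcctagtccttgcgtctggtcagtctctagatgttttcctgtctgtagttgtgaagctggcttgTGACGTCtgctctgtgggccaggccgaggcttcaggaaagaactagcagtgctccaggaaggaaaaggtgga

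Windows of 300 bases around these starts were identical at 256 of 278 aligned bases (92.1%), with 8 bases in gaps. TGACTCA began 129 bases before the Ctla2a start and 143 before that of Ctla2b, and TGACGTC began 50 and 72 bases before. From a second annotated start of Ctla2a both lay farther off, TGACTCA at 188 bases, and that window was identical to the Ctla2b window at 93.1% of aligned bases. Of 32851 mouse promoter windows of this length, 5.20% held TGACTCA and 3.21% held TGACGTC on either strand. TATAAA, present in 13.6% of windows, was found for Ctla2a alone, 190 or 249 bases before its starts, and CACGTG (7.15% of windows) in neither. The windows of Cst3 and Cst7 held none of the 4 motifs, which do not overlap where they were found. RefSeq windows were matched for 4 of the 6 genes (5 windows), not for Cst6 and Cstb. The motifs were picked after the sequences had been seen, and a match is a run of letters, not a bound site.

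Libraries held 14527445 (NC3) to 23388710 (NC2) reads, so 1 read was worth 0.0428 to 0.0688 RPM and 3 reads, the floor used here, 0.128 to 0.207 RPM. Some libraries stood close to each other within HC: a chi-square of the counts gave 24.6 per degree of freedom for HC1 and HC2 and 27.3 for HC3 and HC4, against 105 to 528 for the other pairs. On log2(RPM + 1) HC1 and HC2 correlated at 0.996, but HC3 and HC4 at 0.973, below HC3 with NC1 (0.983). NC3 correlated least with the others, at 0.913 (NC1) to 0.942 (NC2), against 0.947 or more among the other libraries. All chi-square values exceed sampling noise, so 7 libraries were counted, but the HC libraries split by sex. Xist, which is read in female cells, was high in NC1, NC2, HC1 and HC2 (445 to 701 RPM) and at most 0.125 RPM elsewhere, while the Y-linked Ddx3y was read in NC3, HC3 and HC4 (103 to 206 RPM). The labels do not say whether the libraries come from separate animals, so their spread may be partly technical.

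The label of muscle stem cells was checked against defining markers. Pax7, the defining factor of satellite cells, read 268, 8.25 and 4.34 RPM in normocapnia and 21.5, 20.1, 79.5 and 59.6 RPM in hypercapnia. All libraries also held markers of other cells, among them the macrophage receptor gene Adgre1 (70.5 to 429 RPM), the mast cell protease gene Cpa3 (128 to 450 RPM) and the endothelial adhesion gene Pecam1 (26.2 to 317 RPM). S100a8 of neutrophils read 6.63 to 52.9 RPM and the T cell gene Cd3e was at or near 0, with 0.892 RPM at most. In bulk RNA, fewer cells of a type and less RNA per cell cannot be told apart, and values below are those of the sorted mixture. The title of the deposited table gives 40 hours, the labels mention no culture and the study's methods describe cells taken fresh, so whether the cells were cultured before RNA was extracted is not settled by these sources.

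Across the 6 inhibitors the difference between groups ran from near 0 for Ctla2a to a 5.49-fold difference for Ctla2b, and all 6 had a log2 fold change above 0. The thresholds of the study were a p under 0.05 and a fold above 1.5, applied here to the unadjusted p of limma. They were met by 2 of 6 genes, Ctla2b and Cstb, beside 2.57% of all 23930 genes (615 genes, with 1.43% higher in HC) and 4.75% of genes averaging 1 RPM or more. That contrast chose the genes, so nothing is read from this share. The median log2 fold change was 0.47 for the 6 genes, 0.02 for all genes and 0.16 for genes averaging 1 RPM or more. After Benjamini-Hochberg adjustment in limma 0 of 23930 genes passed, with 1114 at an unadjusted p under 0.05 and a lowest adjusted p of 0.351. edgeR on whole reads also passed 0 genes and DESeq2 29.

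**Figure D1:**
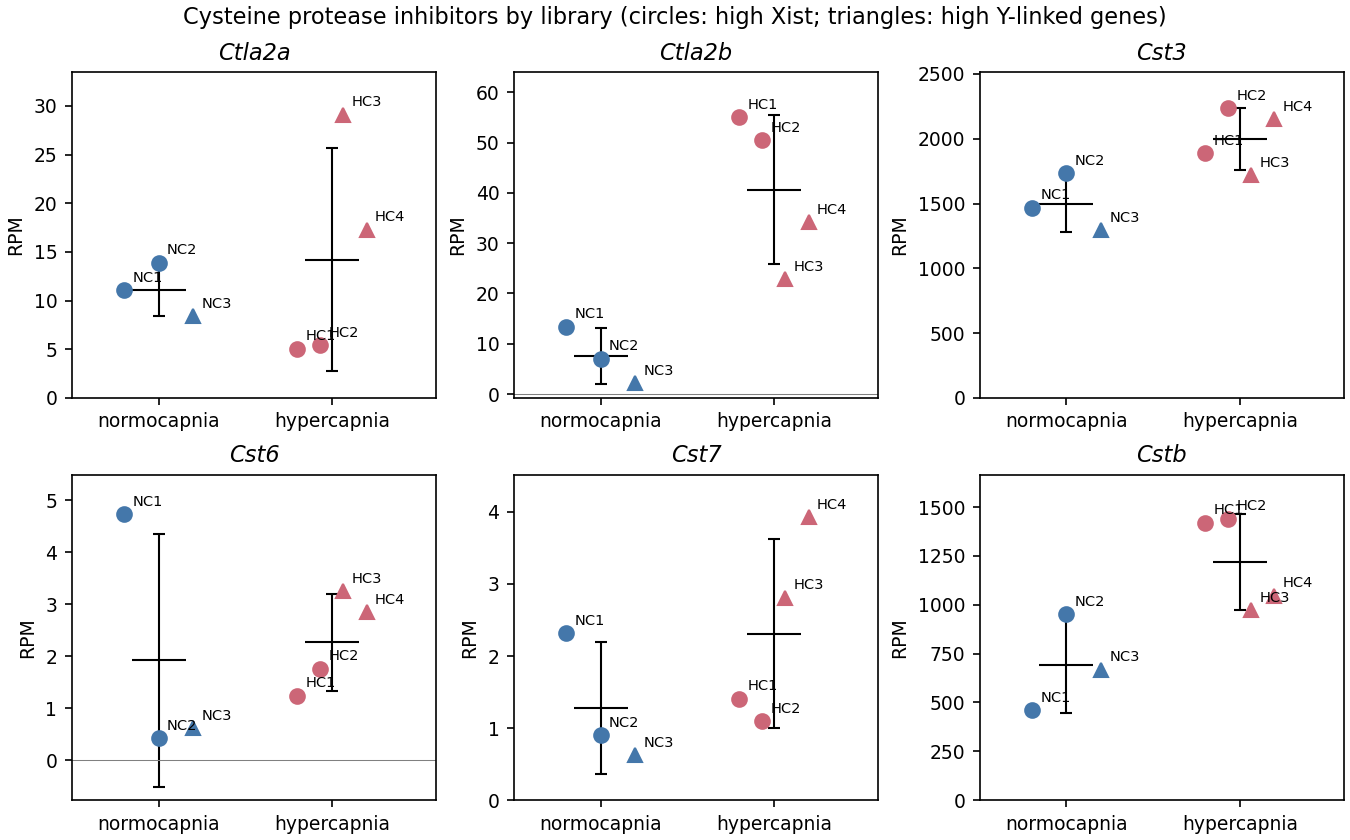
RPM (vertical axis, linear) of each inhibitor in the 3 NC (blue) and 4 HC (red) libraries, circles for libraries high in Xist and triangles for those high in Y-linked genes. Black bars are the mean ± SD, which reaches below 0 for Cst6 in NC. Ctla2b (2.2 to 13.4 against 22.9 to 55.0 RPM) and Cstb (461 to 951 against 973 to 1440 RPM) do not overlap between groups.

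Ctla2b, the propeptide-like inhibitor, read 13.4, 7.01 and 2.2 RPM in normocapnia and 55.0, 50.5, 22.9 and 34.2 RPM in hypercapnia. The lowest HC library lay above the highest NC library, as in 2.53% of all genes and 4.09% of genes averaging 1 RPM or more, while 2.30% of all genes were lower in HC without overlap. The means were 7.547 ± 5.63 RPM (SD, n = 3) and 40.64 ± 14.8 RPM (SD, n = 4), and the log2 fold change was 2.46 (SE 0.59). The value rested on 32 reads in NC3 and 1285 in HC1, so counting error is small beside the spread between libraries. Within NC the CV was 74.6%, with NC1 above NC2 and NC2 above NC3. The difference ranged from 1.88 (without NC3) to 2.96 (without NC1) on the log2 scale over 18 alternative settings, all of them run on these same libraries, so this range is a description as well. In the libraries high in Xist, the log2 difference between the group means was 2.32, and in those high in Y-linked genes it was 3.18, the latter against NC3 alone.

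Ctla2a, its neighbour and closest relative, did not follow, as far as the reads of these genes can be told apart. It read 11.1, 13.9 and 8.4 RPM in normocapnia and 5.05, 5.43, 29.1 and 17.3 RPM in hypercapnia. The HC libraries fell on both sides of the NC range, HC1 and HC2 below it and HC3 and HC4 above it. The CV was 80.5% within HC and 24.7% within NC, around means of 14.21 ± 11.4 RPM (SD, n = 4) and 11.13 ± 2.75 RPM (SD, n = 3), and the log2 fold change was 0.02 (SE 0.66). The sign changed with the setting, from -0.42 (without HC3) to 0.35 (without HC1), and was above 0 in 10 of 18 alternatives. It was also -0.12 under median-of-ratios scaling and -0.11 under quantile normalization.

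The split followed the sex-linked genes. In the libraries high in Xist Ctla2a was lower in HC by a log2 difference of -1.11, and in those high in Y-linked genes it was higher by 1.32, without overlap in either. Such opposite differences without overlap were seen in 22.1% of 12504 genes averaging 1 RPM or more, so the pattern is common in this table. The interaction of exposure and sex was 2.43 (SE 0.47, unadjusted p 0.00945) in limma and did not pass the adjustment over all genes (adjusted p 0.106), whereas 766 genes (3.20%) did. None of the other 5 inhibitors passed either: the nearest was Cst7 at 1.58 (SE 0.54, adjusted p 0.24), and for Ctla2b the interaction was 0.86 (SE 0.61, adjusted p 0.563). Because NC3 is the only NC library high in Y-linked genes, these interactions lean on that library.

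The summed level of all 11 markers on the endothelial list, each of them read in the libraries, was 277, 145 and 95.3 RPM in normocapnia and 86.8, 69.2, 662 and 493 RPM in hypercapnia. HC3 and HC4 held the most and HC1 and HC2 the least of this sum, the same extremes as for Ctla2a. Of the single markers, 10 of 11 were above all other libraries in both HC3 and HC4, 4 were below all others in both HC1 and HC2, and 6 were lowest in NC3, where Ctla2a was not. Between NC and HC, 10 of the 11 markers had a difference above 0 and 0 met the thresholds, which 2.57% of all genes did. Mast cell markers, summed over 8 genes, also split HC, at 1105 and 876 RPM in HC1 and HC2 and 2459 and 2458 RPM in HC3 and HC4, with 1941, 1391 and 1331 RPM in NC1 to NC3. Satellite cell, neutrophil, fibro-adipogenic, myofiber and T and natural killer cell sums were also lower in HC1 and HC2 than in HC3 and HC4. Macrophage markers went the other way, at 8452 and 8408 RPM in HC1 and HC2 and 5798 and 6239 RPM in HC3 and HC4. The part of any of these cell types in the Ctla2a values was not tested.

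**Figure D2:**
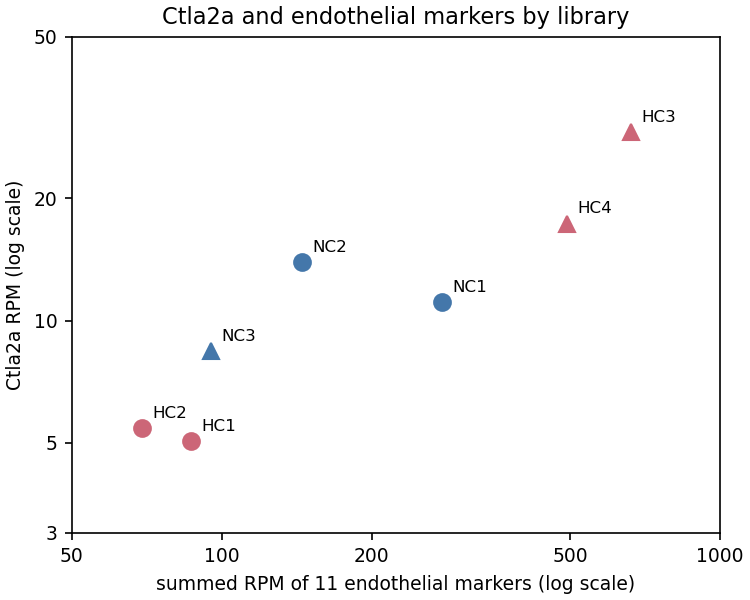
Ctla2a in RPM (vertical axis, log scale) against the summed RPM of 11 endothelial markers (horizontal axis, log scale) in the 7 libraries, blue for NC and red for HC, circles for high Xist and triangles for high Y-linked genes. HC1 and HC2 lie at the lower left (5.05 and 5.43 RPM of Ctla2a) and HC3 and HC4 at the upper right (29.1 and 17.3 RPM).

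Taken as a ratio within each library, which scaling does not change, Ctla2b over Ctla2a was 1.21, 0.505 and 0.262 in normocapnia and 10.9, 9.31, 0.785 and 1.98 in hypercapnia. The ratio overlapped between groups, since HC3 lay below NC1. These ratios compare libraries and do not say which gene is the more abundant. Ctla2b made up 54.7%, 33.5% and 20.8% of the summed RPM of the pair in NC and 91.6%, 90.3%, 44% and 66.4% in HC. The sum itself, which does not depend on how reads are split between the genes, was 24.5, 20.9 and 10.6 RPM in normocapnia and 60.1, 55.9, 52 and 51.5 RPM in hypercapnia. It averaged 18.7 ± 7.23 RPM (SD, n = 3) and 54.9 ± 4 RPM (SD, n = 4), and its CV within HC was 7.29%, against 36.5% for Ctla2b and 80.5% for Ctla2a. HC libraries with less Ctla2b held more Ctla2a, and the totals were close to each other. Within NC this did not hold: NC3 was the lowest NC library for both genes. There the CV of the sum was 38.7%, against 74.6% for Ctla2b and 24.7% for Ctla2a.

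**Figure D3:**
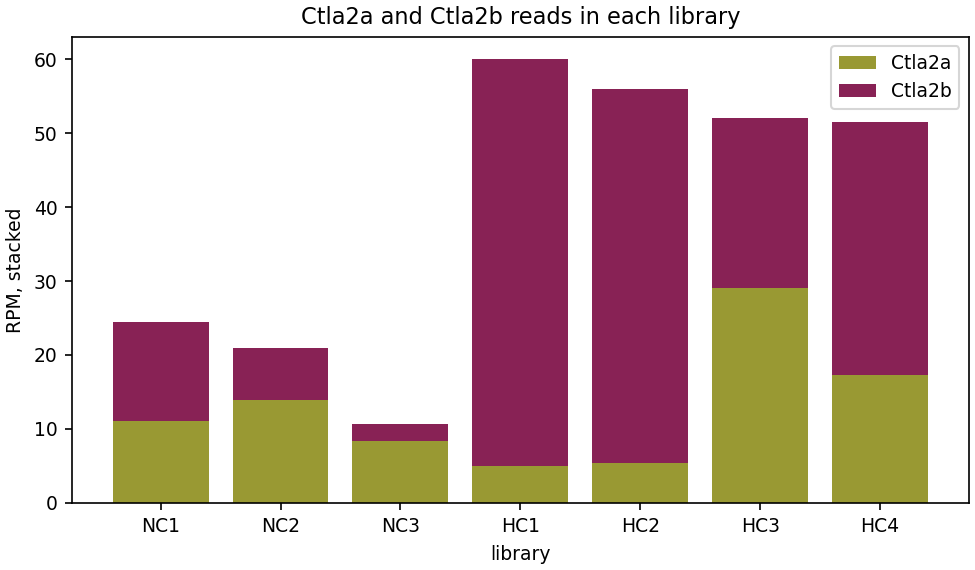
RPM of Ctla2a (olive) and Ctla2b (purple) stacked for each of the 7 libraries (vertical axis, linear from 0). The stacks reach 10.6 to 24.5 RPM in NC and 51.5 to 60.1 RPM in HC, with Ctla2b taking 44% to 91.6% of the HC stacks.

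Cstb, the cytosolic cystatin, read 461, 951 and 668 RPM in normocapnia and 1420, 1440, 973 and 1046 RPM in hypercapnia. The groups did not overlap, but HC3 (973 RPM) and NC2 (951 RPM) were nearly level. The means were 693.5 ± 246 RPM (SD, n = 3) and 1220 ± 245 RPM (SD, n = 4), a log2 fold change of 0.85 (SE 0.29). Of the 18 alternatives, which describe this same contrast and test nothing further, some left Cstb short of the thresholds, namely median-of-ratios scaling (0.71), edgeR (0.66 with and 0.69 without a filter), DESeq2 (0.62), a replicate block (0.92), and leaving out NC1 (0.59), NC3 (0.86), HC1 (0.77) or HC2 (0.77).

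Cst3, the secreted cystatin C, was read at 1469, 1736 and 1294 RPM in normocapnia and 1889, 2236, 1717 and 2151 RPM in hypercapnia. It varied least of the 6 genes, and the groups overlapped only through HC3 and NC2. The means of 1500 ± 223 RPM (SD, n = 3) and 1999 ± 239 RPM (SD, n = 4) gave a log2 fold change of 0.42 (SE 0.14), under the 1.5-fold threshold, with 0.26 to 0.53 over the 18 alternatives. Within libraries high in Xist the log2 difference of Cst3 was 0.36 and within those high in Y-linked genes 0.57, and for Cstb these were 1.11 and 0.59. Ctla2b, Cst3 and Cstb (3 of 6) were higher in HC without overlap in both sexes, as were 10.1% of genes averaging 1 RPM or more. For Ctla2b and Cstb this follows from the lack of overlap over all libraries, so nothing is read from this share. Compared between libraries, the ratio of Cstb to Cst3 was 0.314, 0.548 and 0.517 in NC and 0.752, 0.644, 0.567 and 0.486 in HC.

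The macrophage marker Adgre1 read 70.5 to 149 RPM in normocapnia and 392, 429, 151 and 184 RPM in hypercapnia, a log2 fold change of 1.31 (SE 0.49, adjusted p 0.915 in limma). Like Cstb and Ctla2b, it was highest in HC1 and HC2 and did not overlap between groups, although NC2 (149 RPM) and HC3 (151 RPM) were nearly level. The full list of 12 macrophage markers summed to 4040, 10421 and 6359 RPM in NC and 8452, 8408, 5798 and 6239 RPM in HC, which overlapped, and Adgre1 was its only gene to meet the thresholds, which 2.57% of all genes did. Without overlap and higher in HC, as Adgre1 was, were 2.53% of all genes. The part of macrophages in the Cstb, Cst3 and Ctla2b values was not tested.

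Cst6 and Cst7, secreted cystatins of low level here, showed no separation of the groups. Cst6 read 4.73, 0.428 and 0.62 RPM in normocapnia and 1.24, 1.76, 3.25 and 2.84 RPM in hypercapnia, with 9 reads in NC3 and 10 in NC2, and means of 1.925 ± 2.43 RPM (SD, n = 3) and 2.273 ± 0.932 RPM (SD, n = 4). The highest value of Cst6 was in an NC library, NC1, which held 106 reads. Its log2 fold change of 0.42 (SE 0.56) was 1.06 without NC1, where it met the thresholds, and 0.06 without NC2. Fibro-adipogenic markers, summed over 8 genes, were also highest in NC1, at 3062, 1574 and 1172 RPM in NC and 1315, 1139, 2323 and 2766 RPM in HC. So were satellite cell markers (12 genes), with 4359, 1013 and 546 RPM in NC and 874, 817, 1679 and 1369 RPM in HC, and myofiber markers (8 genes), with 4911, 1287 and 307 RPM in NC and 720, 398, 1387 and 2465 RPM in HC. The part of these cells in the Cst6 values was not tested. Cst7, known from natural killer and other immune cells, read 2.32, 0.898 and 0.62 RPM in normocapnia and 1.41, 1.1, 2.81 and 3.93 RPM in hypercapnia, with a log2 fold change of 0.53 (SE 0.41). The means of Cst7 were 1.279 ± 0.911 RPM (SD, n = 3) and 2.314 ± 1.31 RPM (SD, n = 4), and its log2 fold change lay between 0.21 and 0.84 in the 18 alternatives, of which 0 met the thresholds. HC3 and HC4 were above NC1 for Cst7 and HC1 and HC2 were below it. Within the libraries high in Xist the log2 differences were -0.20 for Cst6 and -0.16 for Cst7, and within those high in Y-linked genes 1.32 and 1.42. Markers of T and natural killer cells summed to 1.24 to 18.9 RPM in NC and 9.25 to 12.7 RPM in HC over 12 genes, and their part in the Cst7 values was not tested.

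**Figure D4:**
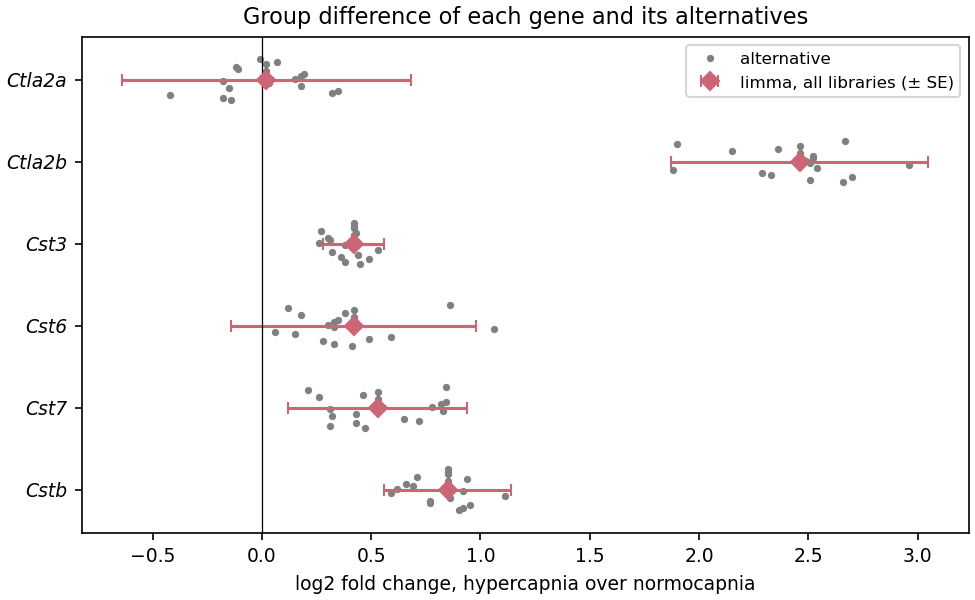
Log2 fold change, HC over NC (horizontal axis), of each inhibitor in limma with all libraries (red diamond, bar ± SE) and in each of 18 alternatives (grey points). Every point for Ctla2b lies at 1.88 or above, and those for Ctla2a lie on both sides of 0, from -0.42 to 0.35.

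Genes whose levels most resembled each inhibitor were sought by Pearson's r on log2(RPM + 1) over the 7 libraries, among 8228 or 8229 genes averaging 10 RPM or more. These points share libraries and depth, and HC1 and HC2 are nearly alike, so r is a description, given without a test. Ctla2b was nearest to Mx1, an interferon-induced GTPase gene (r 0.988, rho 0.964, and 0.958 for deviations from the group means), which read 18.8, 11.4 and 4.68 RPM in NC and 43.2, 41.6, 30.1 and 28.6 RPM in HC. Dhrs7b (r 0.986), Lage3 (0.985), Invs (0.984) and Vipas39 (0.984) came next. Ctla2a was nearest to LOC100038947 (r 0.992), Cytip (0.978), which encodes a cytohesin-binding protein of immune cells, and Gm9733 (0.977). Cstb was nearest to Nampt (r 0.988), which encodes an enzyme of NAD synthesis, Htatip2 (0.988) and Scpep1 (0.987). Cst3 was nearest to Abcc3 (0.959), Galt (0.958) and Synrg (0.953), and these were the lowest values for any of the 6. Cst6 was nearest to Scx (r 0.992), the tendon transcription factor gene, Gxylt2 (0.991) and Hmga2 (0.988), each of them highest in NC1 as Cst6 was. Cst7 was nearest to Aen (0.989), Scd1 (0.980) and Tial1 (0.979).

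The proteases that these inhibitors act on were measured as 11 lysosomal cysteine proteases. Of these, 8 had a log2 fold change above 0 and 3 below it, and 1, Ctsb (cathepsin B), met the thresholds (1.49, SE 0.39, adjusted p 0.836 in limma), beside 2.57% of all genes and 4.75% of genes averaging 1 RPM or more. With a prior variance that follows the mean, 0 met them. The median of the list was 0.39, beside 0.16 for genes averaging 1 RPM or more. Ctsl, whose propeptide the Ctla2 proteins resemble, read 980, 2492 and 9997 RPM in normocapnia and 2341, 2630, 1471 and 1459 RPM in hypercapnia. NC3 held the highest Ctsl and the lowest Ctla2b, and the Ctsl log2 fold change was -0.61 (SE 0.81). Legumain (Lgmn), which Cst3 and Cst6 also inhibit, was at 0.39 (SE 0.38), with 1185, 2497 and 1794 RPM in NC and 2881, 3351, 1584 and 1807 RPM in HC. The summed RPM of the 11 proteases overlapped between groups, at 7601 to 16400 RPM in NC and 13322 to 20932 RPM in HC. Among 4 cathepsins of other classes, which cystatins do not block, Ctsd, an aspartic protease, met the thresholds (1.98, SE 0.41, adjusted p 0.712), beside 2.57% of all genes. Ctsg was at 0.77 (SE 0.47), Ctsa at 0.10 (SE 0.30) and Ctse at -0.54 (SE 0.36), and the median of the 4 was 0.44.

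**Figure D5:**
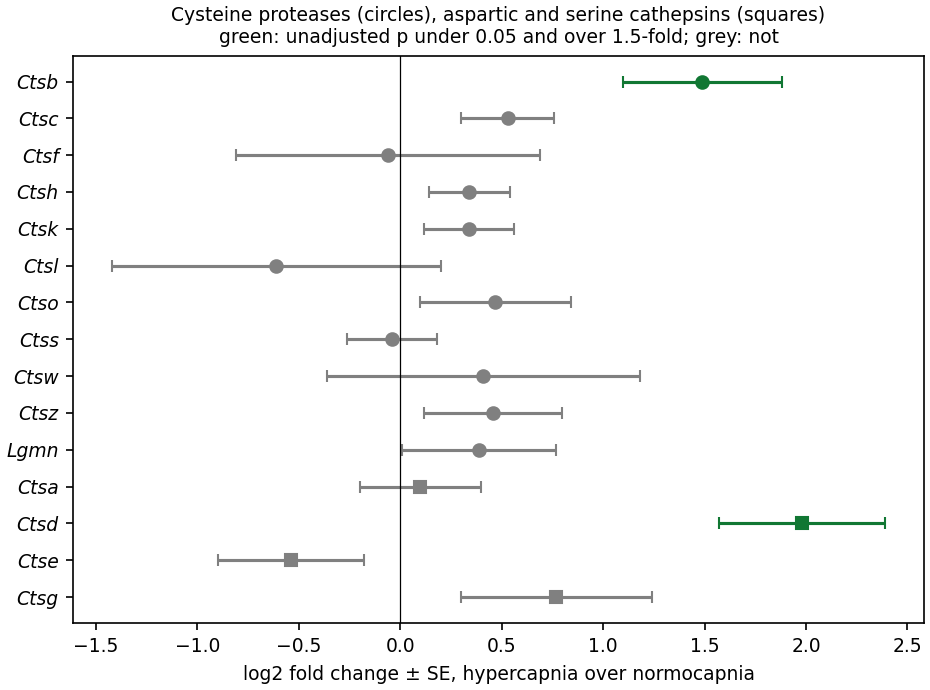
Log2 fold change ± SE, HC over NC (horizontal axis), of 11 lysosomal cysteine proteases (circles) and 4 aspartic and serine cathepsins (squares) in limma. Only Ctsb (1.49) and Ctsd (1.98), in green, met an unadjusted p under 0.05 with a fold above 1.5, and Ctsl (-0.61) has the widest error bar.

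The remaining relatives of these inhibitors were hardly read. Of 28 further genes of the cystatin superfamily listed, 15 were in the table, 5 reached 3 reads in a library, 4 were at 0 in all libraries and 0 met the thresholds, beside 2.57% of all genes. Fetub averaged 1.1 RPM, Kng2 0.82 RPM and Stfa1 0.295 RPM, and their log2 fold changes were 0.47 (SE 0.40), 0.28 (SE 0.35) and -0.09 (SE 0.23). Of 7 inhibitors of other kinds, 2 reached 3 reads, Cast and Xiap, whereas Serpinb3d held 0.05 RPM in HC2 and nothing elsewhere. Xiap, the caspase inhibitor gene, was at 0.34 (SE 0.39), with 63.2, 83.3 and 27.4 RPM in NC and 71.4, 76, 56.5 and 64.4 RPM in HC. Cast, the gene for calpastatin, an inhibitor of cytosolic calpains, was at 0.01 (SE 0.21), with 147, 188 and 115.2 RPM in NC and 134, 125, 161 and 178 RPM in HC.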

How the data were processed

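Transcript abundance was measured by Ion AmpliSeq in sorted Pax7-GFP cells of 3 NC and 4 HC libraries. The authors deposited RPM, reads scaled to a common library total, for 23930 genes, and the submitters' processing notes name Transcriptome Analysis Console. An aligner, a genome build and the amplicons were not given in the sources used here. The table's title gives 40 hours, which the labels do not mention. Whole reads were recovered from the RPM steps (100% of values within 0.05 reads of a whole number), 2443 genes being at 0 in every library, and the count test called 802 genes in edgeR with a filter. The main fit was limma on log2(RPM + 1) across all genes without a filter, and called genes had an unadjusted p under 0.05 and a fold above 1.5. Fold changes on this scale understate those of low genes.

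Software was R 4.3.3 with limma 3.58.1, edgeR 4.0.16 and DESeq2 1.42.0, and Python 3.11.15 with biopython 1.88. The alternatives were pseudocounts of 0.1 and 5 RPM, a mean of at least 1 RPM, quantile normalization, median-of-ratios scaling, a prior variance following the mean, edgeR's quasi-likelihood test, DESeq2, a replicate block and leaving out each library. A term for sex was added after seeing the data. The fit was tested on simulated data. The genes and lists were chosen with earlier results of these data known. Named were the 6 inhibitors, the called genes and 3 highest means of each protease or inhibitor list, the 5 genes nearest to Ctla2b and 3 nearest to each other inhibitor, and defining cell markers. Outside this rule, Ctsg was named as the remaining gene of its list, and Capn7 after its values were seen. Coding sequences, promoters and motifs were read from GENCODE M21 and RefSeq.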

Additional observations from a re-analysis of the deposited data

Results flagged for a closer look

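Ctla2a was singled out because the difference between HC and NC went opposite ways in the libraries high in Xist (log2 difference -1.11, 2 NC and 2 HC libraries) and in those high in Y-linked genes (1.32, 1 NC and 2 HC libraries), with no overlap between groups in either. The interaction, the second difference minus the first, was 2.43 (SE 0.47) in limma. It leans on NC3, the only NC library high in Y-linked genes. Ctla2a was singled out by this same pattern, so no test is given. Sex was read from the sex-linked genes and not from the labels.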

How the results depend on the processing

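Over 18 alternatives and 11 results, no direction of a called result turned and 13 of 198 values moved by more than the limit. The 6 inhibitors' log2 fold changes moved by less than 1 SD. The count of genes meeting the thresholds, 615 (343 higher and 272 lower), was 1049 in edgeR without a filter (407 and 642), 802 with a filter (294 and 508), 1304 in DESeq2 (519 and 785) and 1210 with a term for sex, and 376 (without HC2) to 1990 (without NC1) on leaving out 1 library, with 1205 without NC2 and 385 without HC1. The split turned to 235 higher and 381 lower without NC3 and to 1495 and 495 without NC1. After adjustment 8 genes passed without NC1 and 1 without NC3. Lysosomal cysteine proteases meeting the thresholds, 1, were 2 with quantile normalization, 2 in DESeq2, 2 with a term for sex, 0 with a prior variance that follows the mean, and 1 to 2 on leaving out 1 library (2 without HC4). With the replicate number as a block, 598 genes and 2 of these proteases met the thresholds, and HC4, alone in its block, added nothing. Whether the replicate numbers pair the libraries is not settled: deviations of NC and HC libraries with the same number correlated at -0.35, 0.50 and -0.04. RPM scaling left the median gene of at least 1 RPM at 0.16 and median-of-ratios scaling at 0.04. The causes were not tested. Depth limits Cst6 and Cst7, which rest on as few as 9 reads.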

Other observations

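The calpain family, cytosolic cysteine proteases with their relatives and a regulatory subunit, was measured as 9 genes. Of these, 4 had a log2 fold change above 0 and 5 below it, with a median of -0.06, and 0 met the thresholds, beside 2.57% of all genes. Capns1, the small regulatory subunit, read 1138, 1138 and 458 RPM in normocapnia and 1225, 1307, 1186 and 1213 RPM in hypercapnia, so that NC3 stood low and the other 6 libraries were near each other (0.55, SE 0.35). Capn2 was at -0.25 (SE 0.21) and Capn1 at 0.47 (SE 0.16). Capn7, named after its values were seen, read 49.9, 48.2 and 51.8 RPM in NC and 40.7, 33.1, 35.1 and 38.9 RPM in HC. At -0.43 (SE 0.08, adjusted p 0.65 in limma) it stayed under the 1.5-fold threshold. The groups did not overlap for Capn7, which was lower in HC, as were 2.30% of all genes, nor for Capn1 (96.2 to 110.7 RPM in NC and 116.8 to 181 RPM in HC) and Capns1, which were higher in HC, as were 2.53% of all genes.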
